A study of Mus musculus with 8 samples.

Results

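The mitochondrial respiratory chain genes described here were all probe sets whose annotated symbol begins with Nduf, Uqcr or Atp5, begins with Cox followed by a digit of 4 to 8, or is Sdha, Sdhb, Sdhc or Sdhd. The rule found 179 of the 45036 probe sets used, for 90 of 18192 named genes. It used no measured value, but it was chosen with earlier results of these data known. Probe sets that name several genes were set aside, 10 of them from the same families. The members were grouped by complex: 78 probe sets of 36 genes for complex I subunits, 10 of 8 for complex I assembly factors (the Ndufaf genes), 9 of 4 for complex II, 16 of 8 for complex III, 35 of 17 for complex IV and 31 of 17 for complex V. Ndufa4 was left with complex I by its symbol, although the protein is now also described as a subunit of complex IV. The mitochondrially encoded subunits lie outside the rule.

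The study compared AML12 cells that had been transfected with v-erbA with AML12 control cells. AML12 is an established mouse hepatocyte line, and v-erbA, an oncoprotein first known from a chicken retrovirus, is an altered thyroid hormone receptor that represses target genes of nuclear receptors. Both lines were measured with 1 µM retinoic acid (RA) or untreated, at 24 h and at 3 h, on 1 Affymetrix array for each of the 8 combinations. With no replicate of any combination, the p-values below set each effect against a spread that does not come from replicates. In the main model that spread is how far the 8 arrays depart from adding the effects of line, RA and time. It may be technical. Transfection, and any clone it went through, cannot be told apart from v-erbA, and time cannot be told apart from any batch of the 24 h and 3 h arrays.

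The respiratory chain sits in the inner mitochondrial membrane. Complexes I and II pass electrons from NADH and succinate to coenzyme Q, complex III passes them to cytochrome c, and complex IV (cytochrome c oxidase) reduces oxygen; the proton gradient built on the way drives complex V, the ATP synthase. All of the genes described here are nuclear, the proteins are imported and assembled with the mitochondrially encoded subunits. Liver is a tissue of high oxidative metabolism, and some complex IV subunits have further forms that are best known from other tissues.

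Array medians lay between 71.2 and 76.1 units of signal, a linear intensity per probe set. The labelled cell type was checked against hepatocyte markers: 9 of the 10 measured exceeded the median of all values, 73.5 units, on all 8 arrays, and none of the 10 lay under it on all arrays. Albumin had 9364 to 10433 units in v-erbA cells and 9860 to 11053 units in AML12 cells. Of these 10 markers 1 (Serpina1b) was higher and 5 were lower in v-erbA cells, at an adjusted p under 0.05 in limma. That share, 60%, was near the 53.2% of all genes tested that passed. The sizes were not: 5 of the 10 markers differed by at least 1 on the log2 scale, where 2.76% of all probe sets tested did. Their differences ran from -2.98 (Apoa1) to 1.89 (Serpina1b), with a median of -0.46. The summed signal of the hepatocyte markers was 27978 to 34285 units in v-erbA cells and 32202 to 45781 units in AML12 cells, ranges that overlap. Of 4 biliary markers 1 was higher and 1 lower, with a summed signal of 3240 to 4125 units in v-erbA cells and 4772 to 5953 units in AML12 cells. Few markers of other cells were bright on all arrays, with 1 of 5 for fibroblasts, 1 of 5 for macrophages and 0 of 4 for endothelium. The fibroblast markers summed to 309.5 to 451 units in v-erbA cells and 233 to 369.8 units in AML12 cells, with decorin (Dcn) higher and Col1a2 lower in v-erbA cells. The part of these markers in the results below was not tested, and in such bulk samples fewer cells with a transcript and less of it per cell cannot be told apart.

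Testing required a signal over 73.5 units on 2 or more of the 8 arrays, which held for 160 of the 179 member probe sets and for 85 of the 90 genes by their brightest probe set. The 5 genes whose brightest probe set was dimmer were Cox6b2, Cox7b2, Cox8b, Ndufa4l2 and Ndufb4. Cox6b2 and Cox7b2 are known as testis forms, Cox8b as the form of heart and muscle, and Ndufa4l2 as a gene induced in hypoxia. Ndufb4 is a general subunit of complex I, and its 1 probe set read 10.3 to 27.6 units. Differences are given on the scale log2(signal + 19.9), and the brightest probe set stands for the gene unless another is named. Signals of different probe sets are not on a common scale and are compared only between arrays.

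Carrying v-erbA went with small differences in both directions in the respiratory chain. Of the 160 member probe sets 77, or 48.1%, passed limma's test at an adjusted p under 0.05, 45 higher and 32 lower in v-erbA cells. Among all 24955 probe sets tested the share was 49.7%, with 25.4% higher and 24.3% lower, so the members' share was near the background. The median difference was 0.01 over the members and 0.02 over all probe sets tested. The sizes were unlike: 2 of 160 members (1.25%) differed by at least 0.5 on the log2 scale, against 3273 probe sets (13.1%) of all tested, and 0 members differed by at least 1, against 689 (2.76%). The median standard error was also smaller for the members, 0.04 against 0.08 for all tested. With each array centred on its own median, 31 member probe sets were higher and 40 lower, so the balance of directions depends on the scaling. Counted by gene, 48 of 85 (56.5%) passed, 26 higher and 22 lower, against 53.2% of all 12015 genes tested by their brightest probe set, so this share too was near the background. Of these 48 genes 25 had other probe sets that were tested, 42 in number, and 37 of the 42 had the same sign. No gene had probe sets past the threshold in opposite directions. In 5 genes (Ndufc2, Ndufab1, Sdha, Atp5k and Uqcr10) 1 other probe set had the opposite sign without passing.

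**Figure D1:**
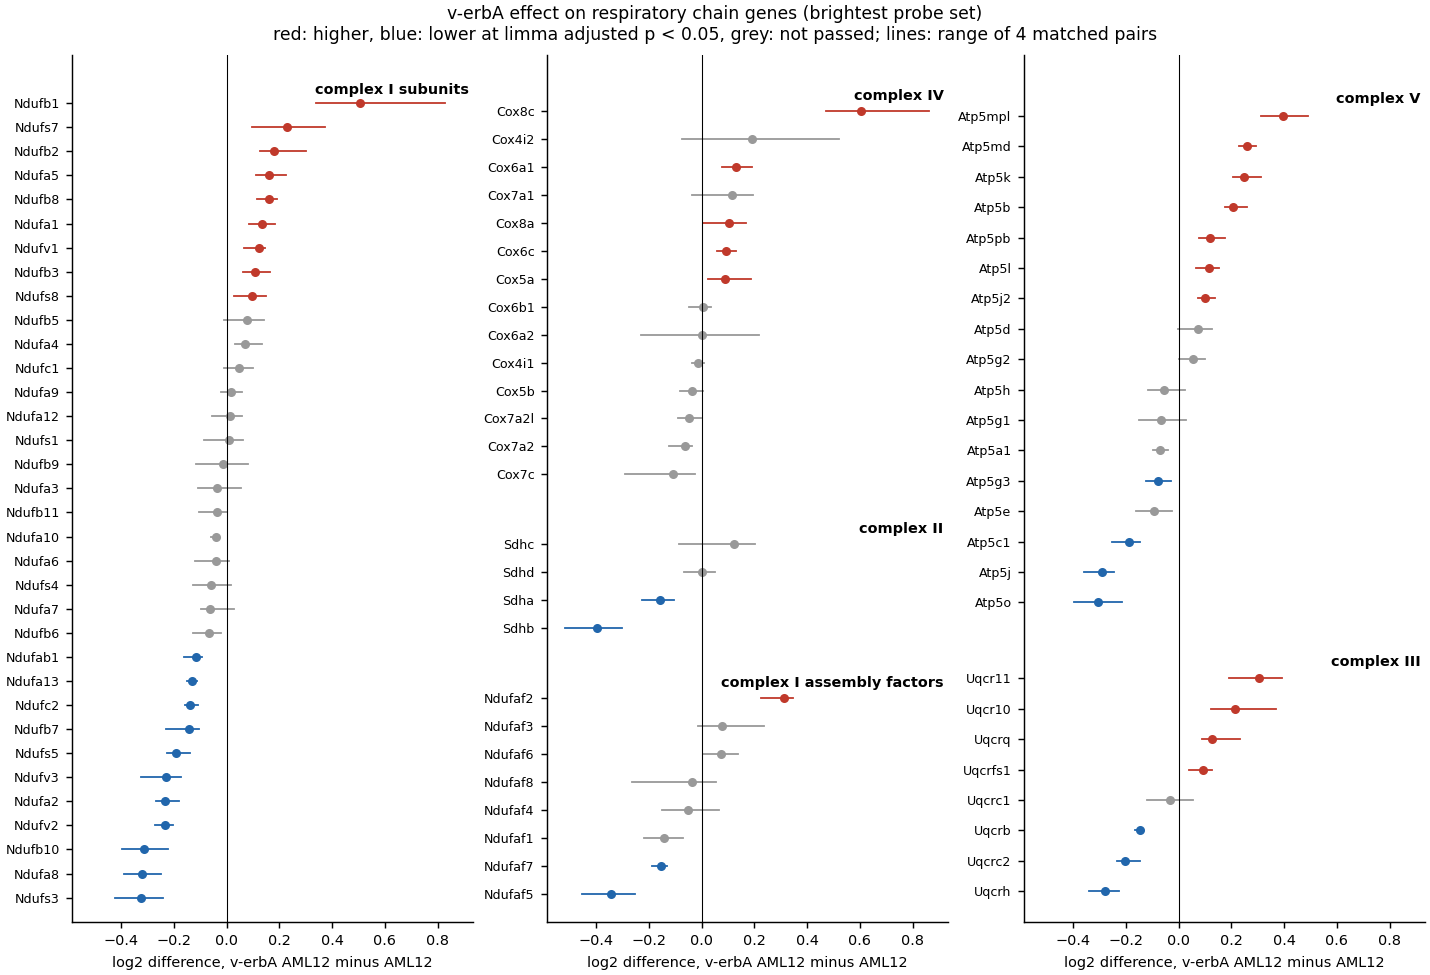
Log2 difference of v-erbA AML12 minus AML12 (horizontal axis) of each of the 85 member genes tested, by complex, with genes higher at the threshold in red, lower in blue and not passed in grey. Points are the fitted differences and lines the range of the 4 matched pairs of arrays; every complex but IV and II has red and blue genes, IV having 5 red and II 2 blue.

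Complex II, succinate dehydrogenase, had 2 genes lower and 0 higher of 4. Sdhb, its iron-sulfur subunit, had 2132 units with RA and 2057 untreated at 24 h and 2176 units with RA and 2086 untreated at 3 h in v-erbA cells, against 2929, 2949, 2698 and 2575 units in AML12 cells in the same order, which is kept below. All 4 v-erbA arrays lay below all AML12 arrays, and the difference was -0.39 ± 0.04 (SE, 4 arrays a line, limma adjusted p = 6.27e-05), the largest fall among the member genes. Sdha, the flavoprotein that oxidises succinate, had 2056, 1999, 1935 and 1854 units in v-erbA cells, against 2304, 2340.3, 2084 and 2043 units in AML12 cells. It fell by 0.16 ± 0.04 (SE, limma adjusted p = 0.00446), and the lines overlapped at 1 value, the RA 24 h v-erbA array reading above the untreated 3 h AML12 array. A dim probe set of Sdha with a mean of 66.6 units read 0.09. Sdhc and Sdhd, which anchor the enzyme in the membrane, did not pass the test. Sdhc had 2247, 2222, 2211 and 2155 units in v-erbA cells, against 1957, 2359, 1942 and 1872 units in AML12 cells, where the untreated 24 h AML12 array alone overlapped the v-erbA values. Its difference was 0.12 ± 0.06 (SE, limma adjusted p = 0.0963) and, without that array, 0.20 and past the threshold. Sdhd differed by 0.00 ± 0.04 (SE, limma adjusted p = 0.976).

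Complex I had 9 subunit genes higher and 11 lower of 34, and 35 of its 72 probe sets passed. Ndufs3, a core subunit, had 2202, 2212, 2208 and 2138 units in v-erbA cells, against 2606, 2973, 2824 and 2615 units in AML12 cells. Ndufa8, an accessory subunit, had 2518, 2430.3, 2479 and 2489 units in v-erbA cells, against 2993, 3191, 3199 and 3010.4 units in AML12 cells. Both were lower on every v-erbA array than on any AML12 array, by -0.33 ± 0.05 (SE, limma adjusted p = 3.42e-04) for Ndufs3 and -0.32 ± 0.04 (SE, limma adjusted p = 8.00e-05) for Ndufa8. Ndufb10, an accessory subunit of the membrane arm, had 1409.9, 1483, 1489 and 1529.7 units in v-erbA cells, against 1827, 1957, 1786 and 1786 units in AML12 cells, again without overlap (-0.31 ± 0.04, SE, limma adjusted p = 2.69e-04). Ndufv2, which carries an iron-sulfur cluster of the NADH-oxidising module, was lower by the same pattern, at -0.23 ± 0.04 (SE, limma adjusted p = 4.64e-04). Its partner Ndufv1, which binds NADH and is named here after its values were seen, was higher, with 2079, 2018, 2088 and 2028 units in v-erbA cells, against 1884, 1929, 1897 and 1831 units in AML12 cells. That difference was 0.12 (limma adjusted p = 0.0157) and turned to -0.07 without passing (limma adjusted p = 0.113) when arrays were centred within each chromosome, as described further on, where Ndufv2 read -0.14 and still passed. Another probe set of Ndufv1 stayed higher with that centring (0.21, limma adjusted p = 0.00189). The largest rise in complex I was that of Ndufb1, at 0.50 ± 0.09 (SE, limma adjusted p = 0.00111). Its 1 probe set had 140.2, 143, 1378 and 1386 units in v-erbA cells, against 107, 71.7, 1013 and 1035 units in AML12 cells. The v-erbA arrays were higher within each time, but in both lines the 24 h values were far below those of 3 h, and the untreated 24 h AML12 value lay under the level of 73.5 units.

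Of the 8 complex I assembly factors 1 was higher and 2 were lower. Ndufaf2, which acts late in assembly, had 614, 581, 685 and 660.0 units in v-erbA cells, against 480.1, 459, 534 and 561 units in AML12 cells. It rose by 0.31 ± 0.05 (SE, limma adjusted p = 7.26e-04) with no overlap. Ndufaf5, which in human cells modifies the core subunit Ndufs7, had 238, 255, 293 and 297 units in v-erbA cells, against 334, 332, 369 and 358 units in AML12 cells. It was lower on all v-erbA arrays, by -0.34 ± 0.06 (SE, limma adjusted p = 9.20e-04). Ndufaf7 was -0.15 ± 0.05 (SE, limma adjusted p = 0.0315), a call lost when any of 7 arrays, all but the RA 24 h AML12 array, was left out, with values of -0.17 to -0.13.

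Complex III had 4 genes higher and 3 lower of 8. Uqcr11, a small subunit, had 2454, 2549, 2642 and 2628 units in v-erbA cells, against 1993, 2232, 2094 and 1997 units in AML12 cells. Uqcr10, another small subunit, had 2899, 2966, 3148 and 3080.2 units in v-erbA cells, against 2663, 2725, 2661 and 2378 units in AML12 cells. Both rose without overlap, by 0.30 ± 0.05 (SE, limma adjusted p = 4.38e-04) and 0.21 ± 0.05 (SE, limma adjusted p = 0.00490). Uqcrh, the hinge protein that helps cytochrome c bind, had 3135, 3154, 3309 and 3300.0 units in v-erbA cells, against 3976, 3922, 3915 and 3865 units in AML12 cells. It was -0.28 ± 0.03 (SE, limma adjusted p = 6.37e-05), and every v-erbA array lay below every AML12 array. The core protein Uqcrc2 and the small subunit Uqcrb were also lower on all v-erbA arrays, by -0.20 ± 0.03 (SE, limma adjusted p = 6.04e-04) and -0.15 ± 0.02 (SE, limma adjusted p = 5.28e-04).

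Complex IV had 5 genes higher and 0 lower of 14, and by probe sets 9 and 0 of 26, but calls in 1 direction only were not found in every alternative. With arrays centred on their medians Cox8a (0.07), Cox6c (0.06) and Cox5a (0.06) no longer passed and Cox7a2 was lower (-0.09, limma adjusted p = 0.0158). Cox7a2 was also lower with all 2-way interactions in the model (-0.06) and with centring within chromosomes (-0.12), and centring within chromosomes also left Cox5b lower (-0.10). At 24 h alone 5 probe sets of complex IV were higher and 1 was lower. Without the mean-variance trend Cox6a1, Cox8a, Cox6c and Cox5a did not pass. Whether complex IV differs from the other complexes was not tested. Cox8c, a form of subunit 8 best known from testis, had 568, 600.4, 440.1 and 473 units in v-erbA cells, against 370.5, 427, 306 and 251 units in AML12 cells. All v-erbA arrays were above all AML12 arrays and the difference, 0.61 ± 0.08 (SE, limma adjusted p = 1.88e-04), was the largest of the member genes. It rests on 1 probe set, since the other probe set of Cox8c, at 32.3 to 70.4 units, was too dim to test. Cox6a1, the liver form of subunit 6a, had 7230.0, 7357, 6956 and 6896 units in v-erbA cells, against 6539.8, 6437, 6428 and 6529 units in AML12 cells. It rose by 0.13 ± 0.02 (SE, limma adjusted p = 0.00172). Cox6c (0.09 ± 0.02, SE, limma adjusted p = 0.0107), Cox8a (0.10 ± 0.03, SE, limma adjusted p = 0.0245) and Cox5a (0.09 ± 0.03, SE, limma adjusted p = 0.0335) were smaller still. The Cox5a call was lost, with values of 0.06 to 0.10, without the v-erbA arrays of RA 24 h, untreated 24 h or untreated 3 h or the AML12 arrays of untreated 24 h or RA 3 h. The Cox8a call was lost without any 1 of the 4 arrays of 3 h, with values of 0.08 to 0.09.

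The tissue-restricted forms of complex IV subunits were set against their common partners. Cox4i2, the lung form of subunit 4, had 133, 109.8, 92.6 and 132 units in v-erbA cells, against 105, 117, 90.4 and 85.8 units in AML12 cells, and its lines overlapped (0.19 ± 0.11, SE, limma adjusted p = 0.178). The common form Cox4i1 had 6346, 6361, 6204 and 6250.3 units in v-erbA cells, against 6303, 6421, 6358 and 6297 units in AML12 cells and differed by -0.01 (limma adjusted p = 0.669). Cox7a1, the heart and muscle form of subunit 7a, differed by 0.12 ± 0.14 (SE, limma adjusted p = 0.513), and Cox7a2, its liver form, by -0.06 (limma adjusted p = 0.0657). Cox6a2, the muscle form of subunit 6a, read 56.0 to 77.6 units in v-erbA cells and 51.4 to 77.3 units in AML12 cells, around the level of dim signals. Its difference was 0.00 (limma adjusted p = 1.00). Cox6b1 differed by 0.01 (limma adjusted p = 0.845) and Ndufa4 by 0.07 (limma adjusted p = 0.0617), while their partners Cox6b2 and Ndufa4l2 were too dim to test.

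Complex V had 7 genes higher and 4 lower of 17. Atp5mpl, a small proteolipid of the synthase, had 2745, 2685, 2646 and 2707 units in v-erbA cells, against 2126, 2159, 1974 and 1922 units in AML12 cells. Atp5md, a small protein of the dimer interface, had 5696, 5669, 5558 and 5583 units in v-erbA cells, against 4716, 4787, 4744 and 4553 units in AML12 cells. Both lay above AML12 on every v-erbA array, by 0.40 ± 0.04 (SE, limma adjusted p = 2.50e-05) and 0.26 ± 0.03 (SE, limma adjusted p = 3.14e-05). Atp5k, subunit e of the membrane part, rose by 0.25 ± 0.03 (SE, limma adjusted p = 1.25e-04). Atp5o, the OSCP subunit at the top of the stalk, had 2432, 2595, 2803 and 2868 units in v-erbA cells, against 3052, 3425, 3407 and 3329 units in AML12 cells. Atp5j, coupling factor 6 of the same stalk, had 2825, 2794, 3031 and 3030.1 units in v-erbA cells, against 3629.6, 3491, 3593 and 3595 units in AML12 cells. Both were lower without overlap, by -0.30 ± 0.04 (SE, limma adjusted p = 2.39e-04) and -0.29 ± 0.03 (SE, limma adjusted p = 6.72e-05). In the catalytic core Atp5b was 0.21 (limma adjusted p = 2.38e-04), Atp5c1 -0.19 (limma adjusted p = 5.03e-04) and Atp5a1 -0.07 (limma adjusted p = 0.0641), these 3 being named after their values were seen. With arrays centred within each chromosome Atp5b read 0.15 and still passed, while Atp5c1 read -0.03 (limma adjusted p = 0.401).

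**Figure D2:**
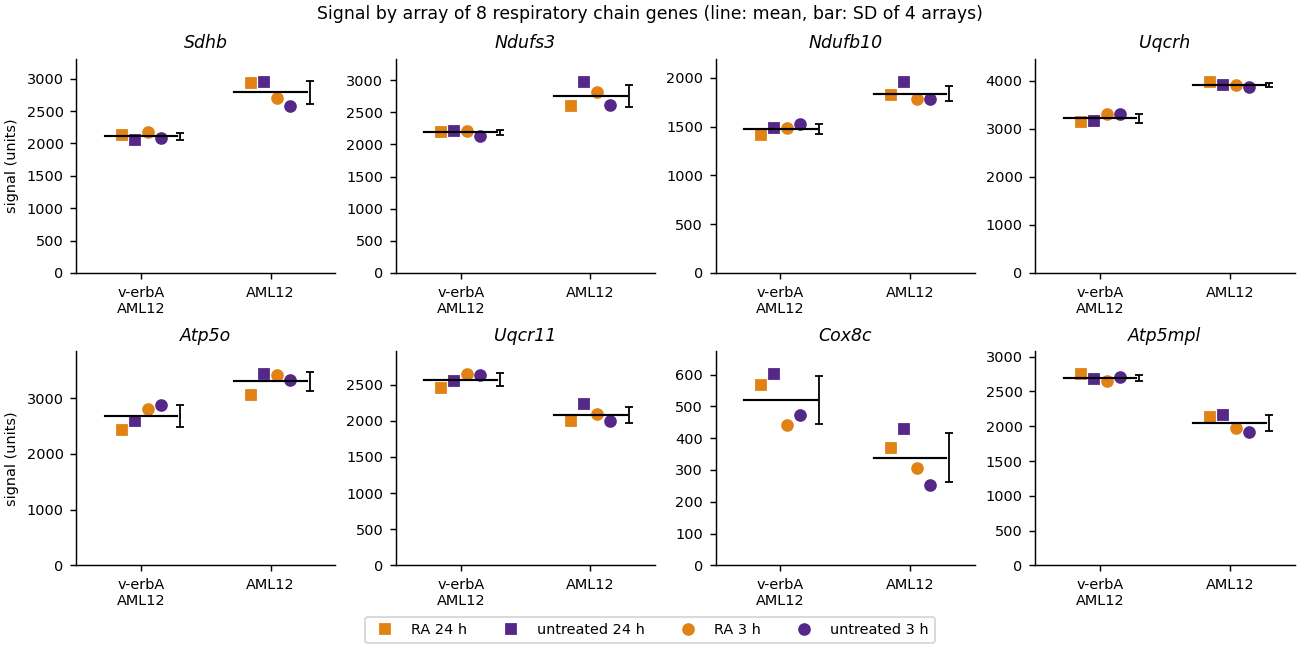
Signal in units (vertical axis, from 0) on each of the 8 arrays for 8 respiratory chain genes, v-erbA AML12 left and AML12 right. Colour marks RA or untreated, shape marks 24 h or 3 h, the line is the mean and the bar the SD of 4 arrays. In all 8 genes the 4 v-erbA arrays lie on 1 side of the 4 AML12 arrays.

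By time, the v-erbA difference was called in 53 of 160 member probe sets at 24 h, 21 higher and 32 lower, where 39.3% of all probe sets passed, 21.0% higher and 18.3% lower. At 3 h it was called in 61, 38 higher and 23 lower, where 33.1% passed, 14.7% higher and 18.5% lower. The median over members was -0.01 at 24 h and 0.04 at 3 h. The difference between the times passed limma's test in 0 of 160 members, with 10 at an unadjusted p under 0.05, where 0.112% of all probe sets passed. The smallest adjusted p was 0.139, for 1 probe set of Ndufab1, the mitochondrial acyl carrier protein. Among brightest probe sets the smallest p-values were those of Sdhb (24 h minus 3 h, -0.18 ± 0.06, SE), Ndufb9 (-0.15), Ndufa3 (-0.14), Uqcr10 (-0.18) and Cox8a (-0.12), with limma adjusted p of 0.465 to 0.561.

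The starts of the genes were searched for 4 motifs that are known from promoters of nuclear mitochondrial genes or that hormone receptors bind. The windows were 300 bases of RefSeq promoters on GRCm38.p6, from 250 bases before the start to 50 after it, and both strands were searched. Of the 90 member genes 74 matched the promoter table by symbol and 16 did not; 75 promoters of 70 tested genes entered the count. The core GCGCATGCG of the NRF1 motif was in 9 of the 75 member promoters (12.0%) and in 1.75% of all 32851 promoters. The latter, here and below, include promoters of genes that were not tested on these arrays, so the 2 sets are unlike in that respect. The ETS motif CCGGAAG, the core bound by GABP, was in 25.3% of the member promoters and 8.86% of all. The YY1 motif AAGATGGC was in 13.3% of the member promoters and 2.75% of all. The nuclear receptor half-site AGGTCA was in 18.7% of the member promoters and 16.3% of all. It was in 6 of 23 promoters of genes higher in v-erbA cells, in 4 of 21 of those lower and in 4 of 31 of those that did not pass. None of the 4 motifs holds another, and a match is a description of the sequence and not a site that is used.

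Promoters are printed for the 2 largest rises and the 2 largest falls among called genes with 1 promoter, since these carry the v-erbA result in opposite directions. Ndufb1 lies at chr12:101975689-101975988 on the minus strand, Ndufaf2 at chr13:108158576-108158875 on the minus strand, Sdhb at chr4:140961021-140961320 on the plus strand and Ndufaf5 at chr2:140170396-140170695 on the plus strand. Capitals mark a motif of the 4 searched, on the printed strand or as its reverse complement: AGGTCA in Ndufb1, AGGTCA and CCGGAAG in Sdhb, the NRF1 core on both strands, overlapping, in Ndufaf5 and none in Ndufaf2.
Ndufb1: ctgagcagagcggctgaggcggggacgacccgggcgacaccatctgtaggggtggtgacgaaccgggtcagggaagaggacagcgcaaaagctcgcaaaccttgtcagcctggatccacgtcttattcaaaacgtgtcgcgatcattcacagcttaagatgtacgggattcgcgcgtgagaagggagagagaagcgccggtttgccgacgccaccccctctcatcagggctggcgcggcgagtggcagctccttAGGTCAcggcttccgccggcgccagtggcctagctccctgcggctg
Ndufaf2: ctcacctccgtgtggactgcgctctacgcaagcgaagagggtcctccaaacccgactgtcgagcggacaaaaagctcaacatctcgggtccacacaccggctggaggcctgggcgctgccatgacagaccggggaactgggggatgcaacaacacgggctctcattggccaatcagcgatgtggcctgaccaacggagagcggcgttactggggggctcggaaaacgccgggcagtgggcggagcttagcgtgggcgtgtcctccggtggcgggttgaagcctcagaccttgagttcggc
Sdhb: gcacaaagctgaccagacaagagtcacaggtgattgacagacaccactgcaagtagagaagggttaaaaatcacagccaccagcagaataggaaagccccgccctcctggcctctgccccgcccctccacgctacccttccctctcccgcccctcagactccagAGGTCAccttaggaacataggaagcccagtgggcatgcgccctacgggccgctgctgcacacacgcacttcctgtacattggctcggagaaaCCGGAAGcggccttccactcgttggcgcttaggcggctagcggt
Ndufaf5: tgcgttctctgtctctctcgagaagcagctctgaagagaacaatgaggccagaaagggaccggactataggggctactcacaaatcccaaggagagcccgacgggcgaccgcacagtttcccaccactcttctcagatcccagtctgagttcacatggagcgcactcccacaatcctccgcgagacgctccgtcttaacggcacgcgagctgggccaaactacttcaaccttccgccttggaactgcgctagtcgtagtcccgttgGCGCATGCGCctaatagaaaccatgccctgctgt
The half-site stood in 1 promoter of a gene that was higher (Ndufb1) and in 1 of a gene that was lower (Sdhb), and the other 2 had none in this window.

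The direction of the v-erbA difference in a member gene mostly ran with that of the other genes of its chromosome. For each of 20 chromosomes with at least 100 other tested probe sets, the median v-erbA difference of the probe sets that are not members was taken. It ran from -0.18 on chromosome 14, which holds no tested member, to 0.21 on chromosome 12, with 8 chromosomes below 0 and 12 above. On 19 of the 20, all but X, it had the same sign in all 4 pairs of arrays matched for treatment and time. Across the 85 member genes the gene's own difference and the median of the other probe sets of its chromosome had a Pearson's r of 0.70 and a Spearman's rho of 0.67. At 24 h alone r was 0.67 and at 3 h alone 0.70, from different arrays. Genes on 1 chromosome share that median, and all values come from the same 8 arrays, so no p is given. Neither this relation nor the counts of the next paragraph were measured for genes outside the members. They are therefore not shown to be particular to the respiratory chain.

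Of the 19 called member genes on chromosomes with a median below 0, 18 were lower and 1 was higher (Ndufa1, on X). Of the 29 on chromosomes with a median above 0, 25 were higher and 4 lower (Ndufa13 and Ndufb7 on chromosome 8, Sdha and Uqcrb on chromosome 13). On chromosome 2, whose other probe sets had a median of -0.15, 5 of 8 member genes were lower and 0 higher, among them Ndufs3, Ndufa8 and Ndufaf5. On chromosome 16 (-0.11) both member genes, Atp5o and Atp5j, were lower. Chromosome 4 (-0.11) held Sdhb and Uqcrh among 3 lower of 6, and chromosome 17 (-0.08) held Ndufb10 and Ndufv2 among 4 lower of 6. On the other side, all 3 member genes of chromosome 12 (0.21), Cox8c, Ndufb1 and Atp5mpl, were higher, as were all 5 of chromosome 19 (0.21), Atp5md and Ndufv1 among them, and all 3 of chromosome 5 (0.10), with Atp5k. On chromosome 10 (0.07) 3 of 5 were higher, including Uqcr11 and Atp5b. These genes belong to different complexes. With genes that did not pass counted too, 27 of 33 were negative on chromosomes with a median below 0. On those with a median above 0, 36 of 52 were positive. The sign went against the median in most member genes of chromosomes 8 (0.04), 11 (0.12) and 13 (0.08), with 3 of 3, 3 of 5 and 4 of 6 negative.

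Subtracting the chromosome's median lowered the SD of the 85 differences to 0.14, against 0.19 as measured. When every array was centred within each chromosome before the fit, an alternative chosen after seeing the data, 17 member probe sets were higher and 29 lower, against 45 and 32 as measured. By gene, 25 of the 48 genes stayed past the threshold with the same sign, 22 no longer passed and 1, Atp5g3, passed with the opposite sign (0.08, against -0.08 as measured). Those that stayed include Sdhb (-0.26), Sdha (-0.24), Uqcrb (-0.22), Ndufb10 (-0.22), Uqcr11 (0.25), Cox8c (0.39) and Ndufb1 (0.29). Atp5md (0.06), Uqcr10 (0.10), Cox6a1 (0.04), Cox6c (0.06), Cox5a (0.03) and Ndufaf7 (-0.06) no longer passed, nor did Atp5c1 and, with its sign turned, Ndufv1, as given above; Cox8a turned to -0.09 without passing. The centring also brought genes past the threshold, so that 33 genes passed with it, 12 higher and 21 lower. Newly higher were Ndufaf6 (0.21) and Cox4i2 (0.35). Newly lower were Ndufs4 (-0.14), Cox5b (-0.10), Cox7a2 (-0.12), Atp5g1 (-0.18) and Atp5h (-0.17). The chromosome medians of the RA difference lay between -0.01 and 0.00 and those of the time difference between 0.01 and 0.05. Gene copy number was not analysed here.

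**Figure D3:**
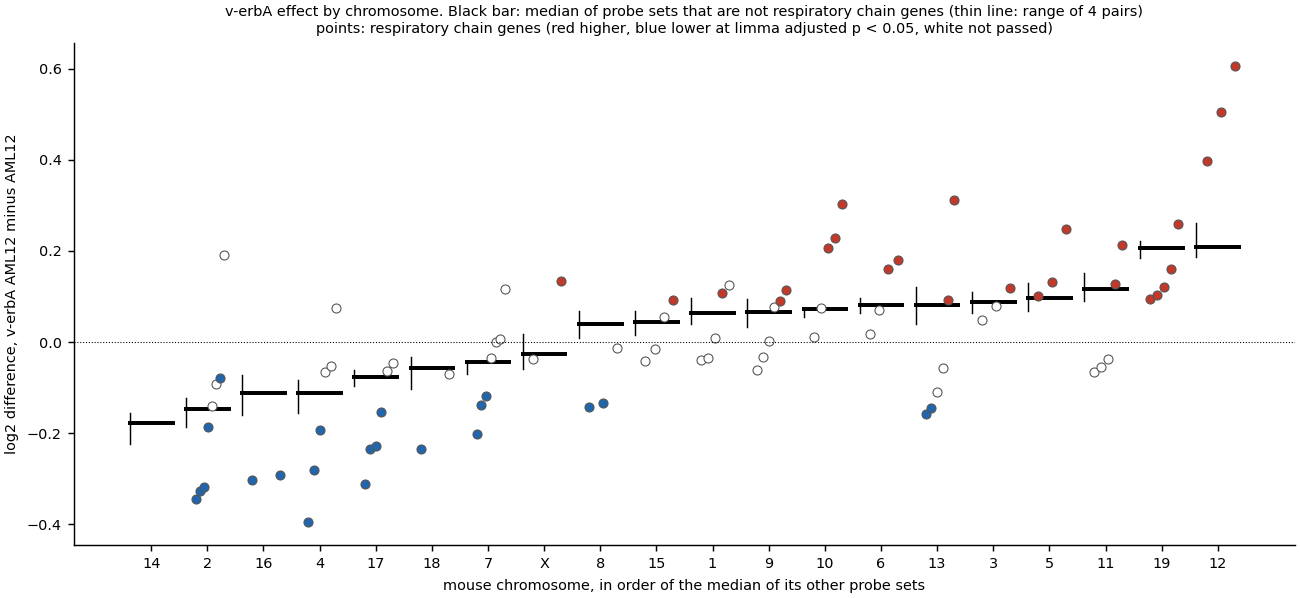
Log2 difference of v-erbA AML12 minus AML12 (vertical axis) by chromosome, for the member genes (points, red higher, blue lower, white not passed) and for the median of the other tested probe sets (black bar, with the range of the 4 pairs as a thin line). Member genes on chromosomes 2, 4, 16 and 17 lie mostly below 0 and those on 5, 10, 12 and 19 mostly above, on the side of the other probe sets. Those on 8, 11 and 13 lie mostly below 0, on the opposite side.

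RA changed no respiratory chain transcript past the threshold. With limma 0 of 160 member probe sets passed, where 1.15% of all probe sets did. Unadjusted, 6 members had a p under 0.05, and the lowest adjusted p was 0.156. The differences ran from -0.33 to 0.26, with a median absolute size of 0.03, against 0.06 over all probe sets tested. The gene with the smallest p was Ndufaf4, a complex I assembly factor, which had 564, 525, 666 and 602 units in v-erbA cells, against 603, 500.4, 741 and 617 units in AML12 cells. The RA array was the higher in 4 of 4 pairs (0.19 ± 0.05, SE, limma adjusted p = 0.163), and a further probe set of Ndufaf4 read 0.26 (limma adjusted p = 0.156). Ndufa7, an accessory complex I subunit, differed by 0.10 ± 0.03 (SE, limma adjusted p = 0.291). Cox7a1 had 109, 176, 156 and 155 units in v-erbA cells, against 95.9, 181, 138 and 132 units in AML12 cells. Its difference of -0.33 ± 0.14 (SE, limma adjusted p = 0.386) came from the 24 h arrays of both lines, where the RA value was the lower, whereas at 3 h the RA values were slightly the higher. With all 2-way interactions in the model it passed, at the same size (-0.33, limma adjusted p = 0.0315), as 1 of 3 member probe sets that then did. That model fits more terms to the same arrays and leaves less spread to test against. The share of all probe sets that passed in it is not given here. Cox8a (0.06, limma adjusted p = 0.529) and Atp5pb (-0.05, limma adjusted p = 0.507) followed. The 4 genes of complex II differed by -0.04 to 0.04.

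By line, RA passed in 0 of 160 members in v-erbA cells (1 at an unadjusted p under 0.05), where 0.0% of all probe sets passed. In AML12 cells it passed in 0 of 160 (5 at an unadjusted p under 0.05, smallest limma adjusted p 0.270), where 0.309% of all passed. Ndufaf4 read 0.12 in v-erbA cells and 0.26 in AML12 cells, and Cox7a1 read -0.30 in v-erbA cells and -0.37 in AML12 cells. Ndufb1 read 0.22 in AML12 cells, where its 24 h values are near the level of dim signals. The difference between the lines in the RA response passed in 0 members with 0 at an unadjusted p under 0.05, and in 0.0% of all probe sets. For Ndufaf4 that difference, v-erbA minus AML12, was -0.14, for Ndufb1 -0.23, for Ndufaf8 0.17, for Ndufb2 -0.11 and for Cox5a -0.08.

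**Figure D4:**
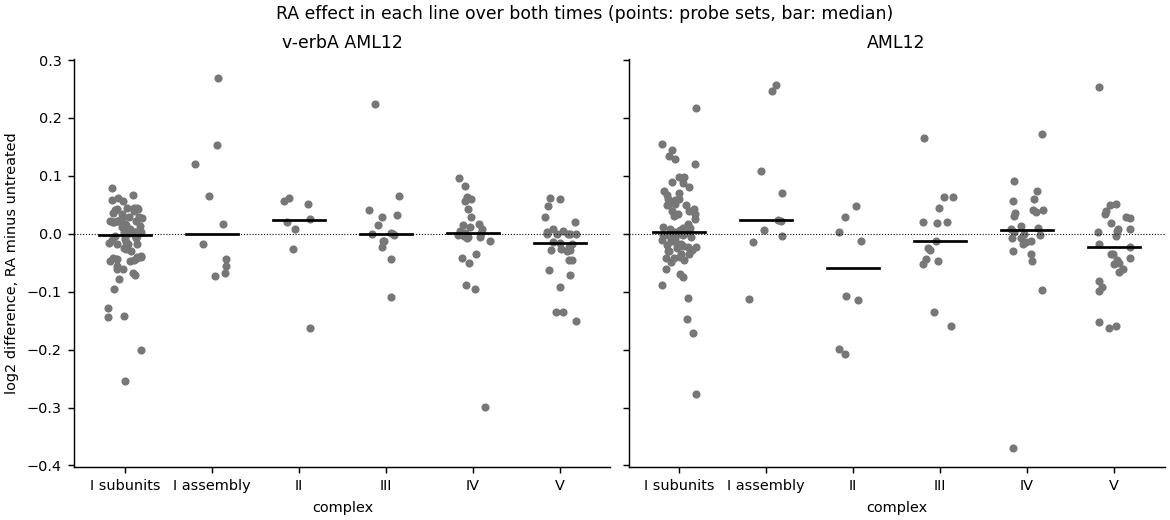
Log2 difference, RA minus untreated (vertical axis), of the 160 member probe sets by complex, in v-erbA AML12 (left) and AML12 (right). Points are probe sets and bars medians, and 0 of the 160 passed the threshold in either line.

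Time passed the test in a smaller share of members than of all probe sets, a difference that was not itself tested. Between 24 h and 3 h 28 of 160 member probe sets (17.5%) passed, 13 higher and 15 lower at 24 h, where 30.4% of all probe sets passed, 16.6% higher and 13.8% lower. After centring the arrays on their medians 10 were higher and 26 lower. By complex, complex I subunits had 8 probe sets higher and 7 lower, the assembly factors 0 and 4, complex II 2 and 0, complex III 1 and 0, complex IV 2 and 4 and complex V 0 and 0. By gene 12 of 85 (14.1%) passed, 5 higher and 7 lower, against 33.8% of all genes tested. Cell type markers moved with time as well: of 10 hepatocyte markers 6 were higher and 1, Hnf4a, was lower at 24 h, with a median of 0.60, and their summed signal was 30677 to 45781 units at 24 h and 27978 to 32727 units at 3 h. Of 4 biliary markers Sox9 was higher and Krt19 lower, with sums of 3240 to 5065 units at 24 h and 3442 to 5953 units at 3 h. Col1a1 of 3 tested fibroblast markers (-2.34) and both tested macrophage markers were lower, with sums of 233 to 341 units and 203 to 311 units at 24 h and 333 to 451 units and 323 to 422 units at 3 h, and the 1 tested endothelial marker did not pass. The part of these markers in the time results was not tested.

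The assembly factors Ndufaf4, Ndufaf2 and Ndufaf5 were lower at 24 h. Ndufaf4 was lower at 24 h in all 4 pairs, as its values above show (-0.25 ± 0.05, SE, limma adjusted p = 0.00546). Ndufaf2 (-0.19, limma adjusted p = 0.0183) and Ndufaf5 (-0.18, limma adjusted p = 0.0404) were less firm. The Ndufaf2 call was lost without the untreated 24 h or RA 3 h v-erbA array or the untreated 3 h AML12 array, with values of -0.19 to -0.16. That of Ndufaf5 was lost without any of 6 arrays, all but the RA 24 h and untreated 3 h AML12 arrays, with values of -0.19 to -0.15, and with the matched pairs as a block (-0.18, limma adjusted p = 0.0645). Ndufa7 was higher at 24 h, with 3862, 3535, 3299.9 and 3306 units in v-erbA cells, against 4133, 3767, 3535 and 3242 units in AML12 cells. The 24 h values exceeded the 3 h values within each line and treatment (0.19 ± 0.03, SE, limma adjusted p = 0.00200), and all 5 probe sets of Ndufa7 passed in that direction, between 0.16 and 0.25. Ndufa6, another accessory subunit, read 0.18 (limma adjusted p = 0.00335).

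In complex II Sdha was 0.13 higher at 24 h (limma adjusted p = 0.0180), a call lost without the untreated 3 h v-erbA array or either 3 h AML12 array, with values of 0.12 to 0.13. In complex IV Cox8c was 0.42 ± 0.08 higher (SE, limma adjusted p = 0.00303), on every 24 h array of a line above every 3 h array of that line. Cox5a was -0.11 (limma adjusted p = 0.0259) and lost the call without the RA 24 h or untreated 3 h v-erbA array or either 3 h AML12 array, with values of -0.11 to -0.10. Cox6a2, near the level of dim signals, read -0.28 (limma adjusted p = 0.0680). It passed with arrays centred on their medians (-0.31), with centring per chromosome (-0.30), without the mean-variance trend (-0.28) and without the RA 24 h AML12 array (-0.34). No gene of complexes III and V passed by its brightest probe set.

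Large time differences were found in 4 of the 160 member probe sets (2.50%) at 1 or more on the log2 scale, against 1458 (5.84%) of all tested, and they were singled out after their values were seen. For Uqcr10, 1 probe set read 2115 to 2378 units at 24 h and 12.4 to 32.9 units at 3 h, at least 30.5-fold higher, while its brightest probe set read 2663 to 2966 units at 24 h and 2378 to 3148 units at 3 h (0.01). For Ndufb9, 1 probe set read 88.4 to 126 units at 24 h and 15.5 to 30.2 units at 3 h, at least 1.53-fold higher, and the 2 bright ones differed by -0.03 each. For Ndufb2, 1 probe set read 39.0 to 52.7 units at 24 h and 267 to 336 units at 3 h, at least 3.99-fold lower, and the 2 bright ones differed by -0.07 and -0.01. In these 3 genes the large difference was thus not followed by the other probe sets that were tested. Ndufb1 read 71.7 to 143 units at 24 h and 1013 to 1386 units at 3 h (-3.20 ± 0.09, SE, limma adjusted p = 7.27e-09), and it has no further probe set to set beside this.

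**Figure D5:**
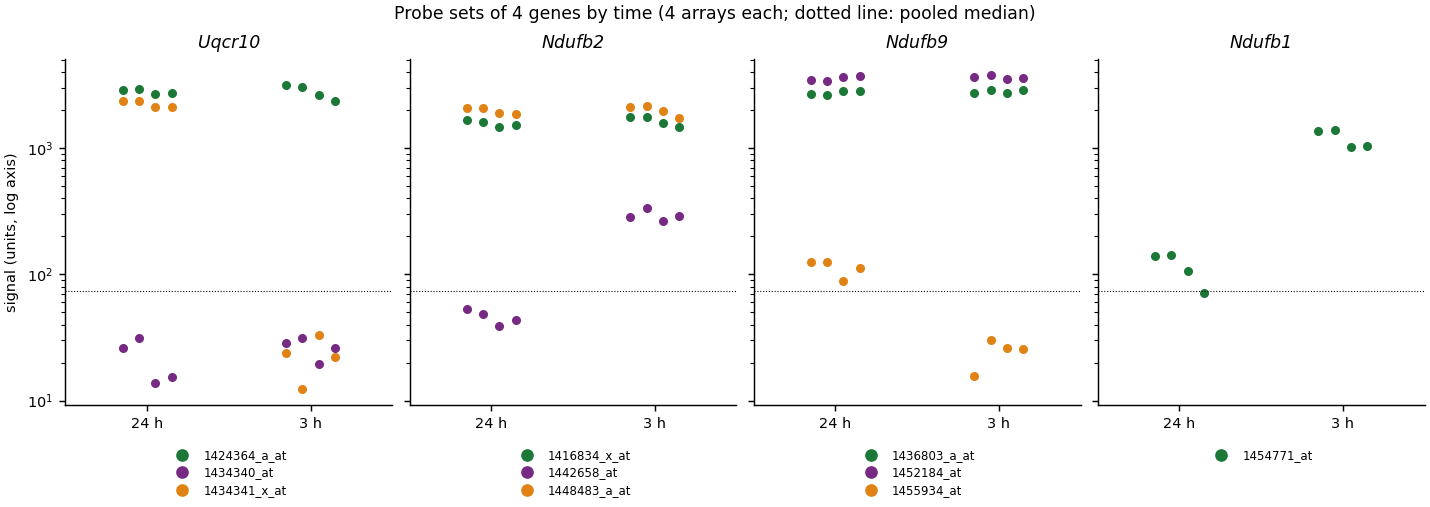
Signal on each array (vertical axis, log scale, units) of all probe sets of Uqcr10, Ndufb2, Ndufb9 and Ndufb1, each probe set in a colour, with the 4 arrays of 24 h left and the 4 of 3 h right and the median of all values dotted. In 3 of the 4 genes the brightest probe set stays level while 1 dimmer probe set differs strongly between the times.

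Genes around the respiratory chain were measured from 6 lists of the same organelle, and the v-erbA counts again went both ways. Their calls are read against the 53.2% of all genes tested that passed for v-erbA and the 33.8% that passed for time. Of 17 genes of the TCA cycle and pyruvate dehydrogenase 5 were higher and 9 lower in v-erbA cells, with a median of -0.09, among them Pdhb of pyruvate dehydrogenase (-0.47), Idh3b of isocitrate dehydrogenase (-0.40) and citrate synthase Cs (0.39). Of 16 genes of electron carriers and coenzyme Q synthesis 3 were higher and 7 lower (median -0.12), with Coq10b (0.57), Pdss2 (-0.54) and Coq4 (-0.53) the largest. Of 29 assembly factors of complexes II to V 7 were higher and 10 lower (median 0.04). Surf1, needed to build complex IV, had 865, 843, 723 and 736 units in v-erbA cells, against 1361, 1451, 1199.5 and 1183 units in AML12 cells, all v-erbA values being lower (-0.70 ± 0.04, SE, limma adjusted p = 1.92e-06). It lies on chromosome 2, where probe sets outside the respiratory chain had a median of -0.15. The chromosomes of the other genes of these lists are not given here. Tmem70 of complex V assembly read 0.44 and Sco2, a copper chaperone of complex IV, 0.43.

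Of 18 regulators of mitochondrial biogenesis 6 were higher and 3 lower (median 0.01). Ppargc1a, the coactivator PGC-1 alpha, had 104, 96.9, 105 and 102 units in v-erbA cells, against 37.3, 42.2, 51.9 and 50.6 units in AML12 cells. The AML12 values all lay under 73.5 units, so Ppargc1a was at least 1.39-fold higher in v-erbA cells (limma adjusted p = 6.31e-05). Tfam, which packages mitochondrial DNA and takes part in its transcription, had 388, 402, 386 and 402 units in v-erbA cells, against 605, 524, 566 and 537 units in AML12 cells. It was lower without overlap (-0.48 ± 0.06, SE, limma adjusted p = 1.35e-04). Pprc1, a relative of PGC-1 alpha, read 0.50. Of 6 carriers and porins 3 were higher and 1 lower, the largest being Vdac2 (-0.17), Slc25a3 (0.16) and Slc25a5 (0.12). Of 13 genes of the list of inner membrane organisation 3 were higher and 6 lower. The largest were Oma1 (-0.40), Mfn2 (0.39), a protein of the outer membrane that the list also holds, and Apool (-0.37). RA passed limma's test in 0 genes of each of these 6 lists, with between 0 and 3 a list at an unadjusted p under 0.05. Time passed in 2 higher and 3 lower of the TCA list, 4 and 3 of the carrier and coenzyme Q list, 5 and 4 of the assembly list, 2 and 0 of the regulators, 0 and 1 of the carriers and porins and 1 and 0 of the inner membrane list.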

How the data were processed

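Total RNA of 8 cultures was labelled and hybridised to Affymetrix arrays, per the labels' protocols. The authors deposited 1 linear signal intensity per probe set and array; how probes were summarized and arrays scaled is not stated there, and the deposited scaling was kept. Of 45037 probe sets 1 lacked values and was left out. Groups follow the sample titles, although 3 descriptions of 24 h samples say 3 h.

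Probe sets were named from the platform annotation, and all 179 members matched RefSeq genes of GRCm38.p6. An offset of 19.9 units, the 20th percentile, was added before log2. limma 3.58.1 (R 4.3.3) was fitted to all 24955 probe sets with at least 2 of 8 arrays over the pooled median, with a mean-variance trend and Benjamini-Hochberg adjustment over all of them. An additive model of line, RA and time had 4 residual degrees of freedom, and models with line by RA or line by time had 3. The alternative with all 2-way interactions had fewer still. Where all arrays of the lower group were dim, a fold is a bound, taken as the higher group's mean over the pooled median. In data simulated for the v-erbA comparison over 24955 probe sets, 100 carried a change of 0.5 and 100 a change of 1.0 on the log2 scale. Of these 62% and 91% were recovered, with 8 false calls. In the measured data 49.7% of probe sets passed and 2 of 160 members reached 0.5. The recovery therefore does not carry over to the members.

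Per complex, the genes named are up to 5 (v-erbA) or 3 (time) largest changes past the threshold with 1 direction in all 4 pairs, or the 5 smallest p-values where none passed, plus the Sdh genes, the tissue isoforms with their partners, and 3 genes per further list. The members and lists were chosen with earlier results of these data known. Alternatives covered scaling, offset, filter, trend, 1 probe set per gene, model terms, each array left out, and, both added after seeing the data, centring per chromosome and the matched pairs as a block. Figures were drawn with matplotlib 3.10.9. The number of arrays limits the precision.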

Additional observations from a re-analysis of the deposited data

How the results depend on the processing

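The labels carry no replicate numbers. With the 4 pairs of arrays matched for the other conditions as a block, chosen after seeing the data, 46 member probe sets were higher and 36 lower for v-erbA, 0 passed for RA, and 11 were higher and 13 lower for time; of the named genes this block ended the call of Ndufaf5 for time. For the v-erbA difference, 45 member probe sets were higher; 27 were without the mean-variance trend, 26 with 1 probe set per gene, 17 with arrays centred per chromosome and 35 to 48 with 1 array left out. The 32 lower ones stayed within 1.5 times of that count in every alternative, with 27 to 33 when 1 array was left out. For RA, 3 members passed with all 2-way interactions in the model, against 0 otherwise. For time, 13 were higher; 8 were without the trend, 5 with 1 probe set per gene, 20 with all 2-way interactions and 10 to 14 with 1 array left out. The 15 lower ones were 26 with arrays centred on their median, 8 without the trend, 7 with 1 probe set per gene, 22 with all 2-way interactions and 7 to 17 with 1 array left out, 7 without the RA 24 h or RA 3 h v-erbA array and 9 without the untreated 3 h v-erbA array.

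The median v-erbA difference of the complex I assembly factors (-0.04) was -0.0754 with arrays centred on their median, -0.00406 with quantile normalization and -0.000731 with centring per chromosome; that of complex II (0.04) was -0.0783 with 1 probe set per gene, that of complex III (-0.03) was 0.0298 with 1 probe set per gene and -0.0431 to 0.0390 with 1 array left out, and that of complex IV (0.02) was -0.00907 with arrays centred on their median and 0.0670 with quantile normalization. Of 611 values of the 34 genes that the rule named for v-erbA, 565 were counted as the same. A further 32 fell out of the threshold, 10 came past it and 4 were counted as sign changes. These were Cox8a (-0.0931), Sdhd (-0.0560) and Ndufa4 (-0.000182) with centring per chromosome and Cox6b1 (-0.0241) with arrays centred on their median. Some values near 0 crossed it and were still counted as the same. With 1 array left out, Cox6a2 ran from -0.0631 to 0.0656, Sdhd from -0.0249 to 0.0333 and Cox6b1 from -0.00918 to 0.0286. Ndufv1, outside the rule, turned to -0.0746 per chromosome. None of the other sign changes counted concerned a call. For RA they were, with arrays centred on their median, Cox7a2 (0.00770), Cox6a1 (0.0272), Cox6b1 (0.0297) and Cox4i1 (0.0234). With 1 array left out they were Cox4i2 (-0.159 to 0.0503) and Sdhc (-0.0808 to 0.0334). For time they were Ndufa4 (-0.0190 per chromosome), and Ndufa4 (-0.0184), Cox6b1 (-0.0172) and Cox4i1 (-0.0160) with arrays centred on their median. Not counted, with 1 array left out for RA, were Sdhd (-0.0284 to 0.0299), Cox6a2 (-0.00474 to 0.109), Cox6b1 (-0.0164 to 0.0214), Cox6a1 (-0.0185 to 0.0115) and Cox4i1 (-0.0145 to 0.000812). For time these were Cox7a1 (-0.213 to 0.0186) and Cox6b1 (-0.00483 to 0.0285). Causes were not tested. Dim signals limit what 19 of the 179 member probe sets can show.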

Other observations

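1 probe set of ND5, a mitochondrially encoded subunit of complex I that lies outside the rule and was looked up after other values were seen, read 9009 units with RA and 8895 untreated at 24 h and 8427 with RA and 7891 untreated at 3 h in v-erbA cells. In AML12 cells it read 6972, 9692, 9125 and 8742 units in the same order. The lines overlapped, and the RA 24 h AML12 array was the lowest of the 8.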
